A study of Mus musculus with 6 samples.

Results

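The genes described here are the potassium channel genes of the mouse habenula, a small epithalamic region that relays forebrain signals to midbrain monoamine neurons. They were chosen by symbol, as the rows of the gene table whose symbol begins with Kcn. Of 99 such rows, 5 were left out by name (Kcnj8, Kcnj10, Kcnj13, Kcne2 and Kcnq1ot1) and 4 because they are antisense transcripts, which left 90 genes of 55359 in the table. A mean of at least 1 FPKM (fragments per kilobase of exon, scaled by the library total, so a level per length) over the 6 libraries was reached by 61 of the 90 genes, and these were tested together with the other genes that reached it, 14539 in all. The table calls Kcne1l a pseudogene in its description, whereas GENCODE lists it as protein coding, and it was kept.

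RNA was taken from the habenula of C57BL/6 mice aged 2 months. There were 3 wild-type (WT) libraries and 3 libraries labelled as Tet2 conditional knockout (Tet2 cKO). Tet2 is an enzyme that oxidises methylated cytosine in DNA. The Cre driver, the deleted exons and any allele or agent carried by the WT mice are details not stated by the sources used here. Nothing says that the libraries came from separate animals, so p-values measure only the spread between these libraries, which may be technical. The comparison asks how deletion of Tet2 alters expression in the habenula.

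Tet2 itself stood at 3.45, 3.46 and 3.71 FPKM in WT, against 4.47, 4.02 and 3.96 FPKM in the libraries labelled Tet2 cKO. No library with that label lay below a WT library, so a loss of Tet2 is not seen in these values. The log2 difference was 0.22 (95% interval 0.05 to 0.39), with an edgeR Benjamini-Hochberg adjusted p of 0.9999. This is a whole-gene count that keeps reads from undeleted exons, so it cannot decide whether the deletion took place. "Tet2 cKO" below always means the libraries with that label. All 12 habenula neuron markers looked for, among them Gpr151, Pou4f1, Tac2 and Chrnb4, were detected in every library. WT replicate 3 stood apart. On the first principal component (33.0% of the variance) it lay at 32.4, and the other libraries at -15.6 to 8.21. Its habenula marker score, a mean of log2(FPKM + 1), was 4.23, against 4.48 to 4.90 in the other 5 libraries. Library totals lay between 16089676 and 17917987 counts. The chi-square between any pair of libraries was 4.09 to 20.3 per gene, and none was a copy of another.

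Potassium channels let potassium leave the cell and so return the membrane to rest after a spike, set the resting potential and space the spikes of a train. Voltage-gated members open on depolarisation, calcium- and sodium-activated members respond to ions that enter during activity, inward rectifiers and tandem-pore channels hold the resting potential, and auxiliary subunits change gating or delivery to the membrane. In the habenula they are known for their part in burst and tonic firing. Several kinds of subunit can be told apart from their coding sequence, because every pore-forming subunit carries a short selectivity filter that strips water from potassium ions.

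A filter, written as 5 codons for Ser or Thr, then Ile, Val, Thr or Leu, then Gly, then Tyr, Phe or Leu, then Gly, was found in the coding sequence of 74 of the 90 genes (GENCODE release 21, GRCm38). All 14 Kcnk genes, the tandem-pore family, carried 2 such filters. It was absent from the 3 Kcnab, 4 Kcnip, 4 Kcne and 4 Kcnmb genes and from Kcnrg, whose products are auxiliary or regulatory. One stretch of 30 coding bases is shown for each of 9 genes on which the results below turn, with the 5 filter codons in capitals. Each lies within 1 exon. The G protein-gated inward rectifiers are given first, then the voltage-gated, silent and ion-activated subunits.
Kcnj9: gagaccACCATCGGCTATGGGcaccgggtc
Kcnj3: gaggccACCATCGGCTATGGCtaccgctac
Kcnj5: gaaacaACCATTGGGTATGGCttcagagtc
Kcnj6: gaaaccACCATCGGTTATGGCtaccgggtc
Kcnc2: atgactACCTTAGGTTACGGGgatatgtac
Kcns3: atgaccACAGTGGGCTATGGAgacacccac
Kcng4: atgacgACCGTGGGCTATGGGgacatggtc
Kcnma1: atgtctACAGTGGGTTATGGGgacgtttat
Kcnh2: ctcaccAGCGTGGGCTTTGGCaatgtctct

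In GRCm38 these stretches lie at chr1:172326175-172326204 (minus strand, Kcnj9), chr2:55437621-55437650 (plus, Kcnj3), chr9:32322550-32322579 (minus, Kcnj5) and chr16:94832768-94832797 (minus, Kcnj6). Those of the voltage-gated and silent subunits lie at chr10:112456223-112456252 (plus, Kcnc2), chr12:11091566-11091595 (minus, Kcns3) and chr8:119625901-119625930 (minus, Kcng4). Those of Kcnma1 and Kcnh2 lie at chr14:23528404-23528433 and chr5:24325546-24325575, both on the minus strand. The silent subunits Kcns3 and Kcng4 carry the filter, although they are known to form no channel alone. Kcnh2 codes phenylalanine where the others shown code tyrosine, as do all 8 Kcnh genes.

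Across the 90 genes, 24 stood at a mean of at least 10 FPKM, 37 between 1 and 10 FPKM and 29 below 1 FPKM. The tested potassium channel genes had a median level of 8.27 FPKM, beside 6.30 FPKM for all genes tested. The 10 highest genes held 49.9% of the summed FPKM of the family. They were Kcnj9 (mean 47.6 FPKM over 6 libraries), Kcnip4 (47.1), Kcnc2 (44.6), Kcnd2 (40.6), Kcnab2 (35.3), Kcnma1 (34.9), Kcnk1 (34.1), Kcna2 (28.6), Kcnj3 (24.2) and Kcnip3 (21.7). They span inward rectifiers, voltage-gated pores, a calcium-activated pore, a tandem-pore channel and 3 auxiliary subunits. Kcnj9 was above Kcnip4 in some libraries and below it in others, so the order of these genes is not beyond the spread. Kcnc2 overlapped both in range but lay below both within each of the 6 libraries, in some by a small margin. In bulk tissue, fewer cells of a type and less RNA per cell cannot be told apart.

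**Figure D1:**
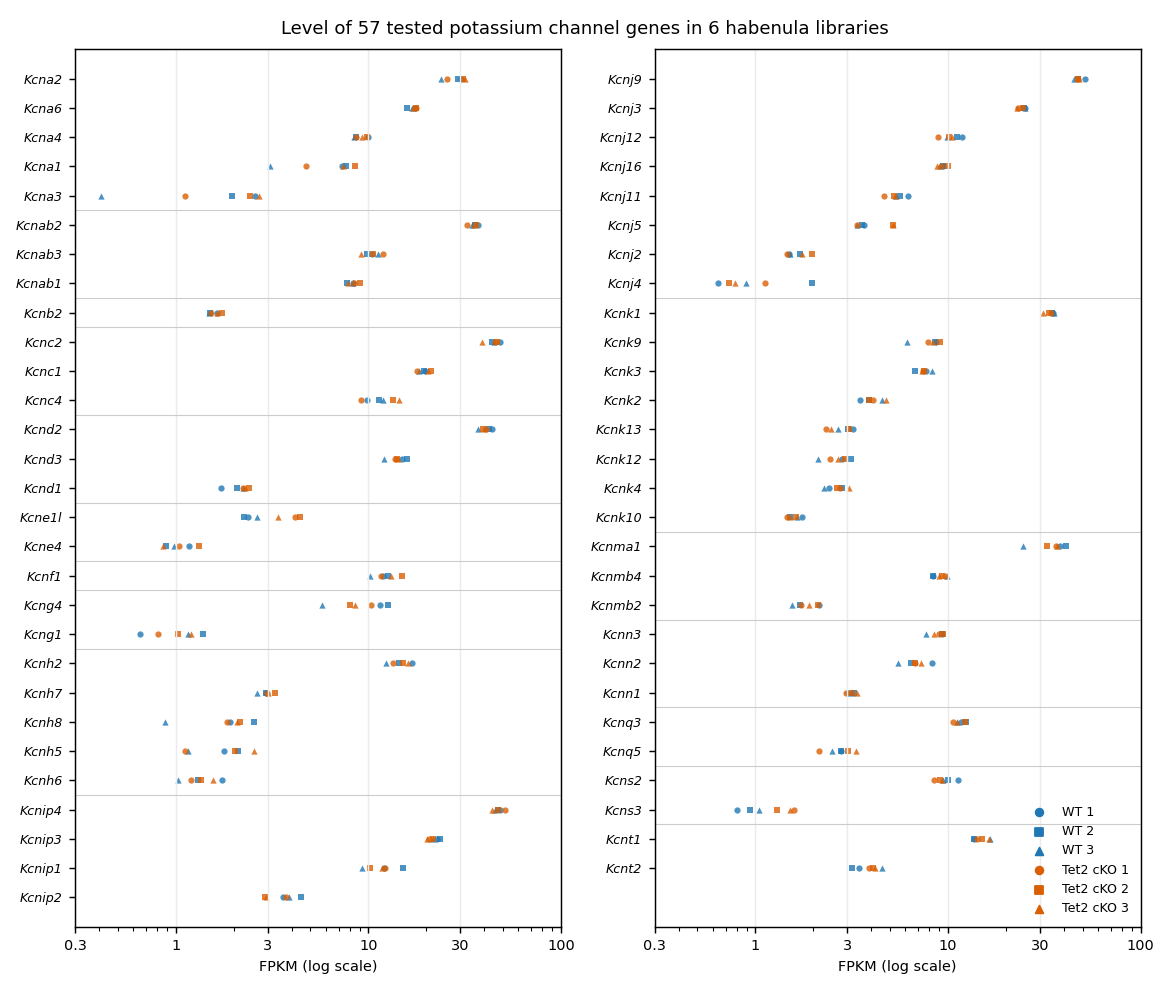
FPKM on a log scale of 57 of the 61 tested potassium channel genes, grouped by subfamily, with 1 point per library (blue WT, orange Tet2 cKO; circle, square and triangle for replicates 1, 2 and 3). Most genes have 6 points close together, and Kcna1, Kcna3, Kcng4 and Kcnma1 have WT replicate 3 to the left of the other points.

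By subfamily, the inward rectifiers (Kcnj, 12 genes) held 14.7% of the summed FPKM of the family, averaged over the 6 libraries. The fast Kcnc channels followed with 12.6% from 4 genes, and the Kcnip calcium-binding subunits with 11.7% from 4 genes. Kcnk held 9.02%, Kcna 8.89%, Kcnd 7.90%, Kcnab 7.53%, Kcnm 6.48% and Kcnq 4.88%. The Kcnh, Kcnn and Kcnt subfamilies held 3.36%, 2.64% and 2.63%. Summed FPKM of the whole family was 748, 742 and 667 in WT replicates 1 to 3 and 699, 737 and 721 in the libraries labelled Tet2 cKO. WT replicate 3 was the lowest and the groups overlapped.

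**Figure D2:**
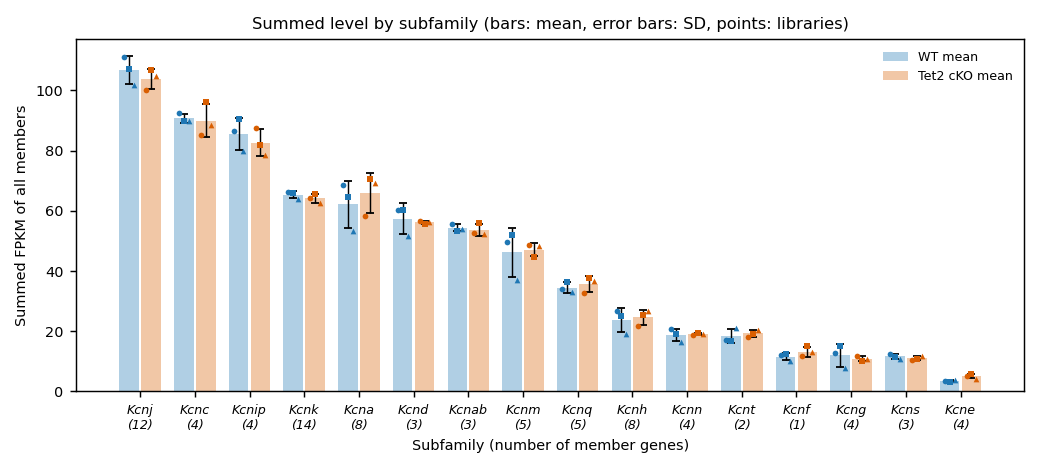
Summed FPKM of the subfamilies drawn, as mean (bar) and SD (error bar) of 3 libraries per group, with points for single libraries and the number of genes under each name. The WT and Tet2 cKO points overlap in each subfamily shown but Kcne, where the WT mean was 3.46 FPKM and the Tet2 cKO mean 5.07 FPKM.

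The Kcna genes encode Shaker-type channels that sit along axons and near nerve terminals. Kcna2, the main axonal subunit, stood at 30.41, 29.11 and 23.91 FPKM in WT, against 25.51, 30.81 and 31.59 FPKM in Tet2 cKO. Kcna6 followed at 16.7 ± 0.750 FPKM in WT (SD, n = 3) and 17.4 ± 0.269 FPKM in Tet2 cKO (SD, n = 3). Kcna4, an inactivating subunit, stood at a mean of 9.10 FPKM over the 6 libraries. The groups overlapped for all 3 genes. Several Kcna genes are neighbours. Kcna3, Kcna2 and Kcna10 lie in a row on chromosome 3 with gaps of 63.1 and 68.0 kb, yet stood at means of 1.87, 28.6 and 0.055 FPKM. Kcna5, Kcna1 and Kcna6, neighbours on chromosome 6, stood at means of 0.973, 6.47 and 17.1 FPKM. Their cytoplasmic partners, the Kcnab subunits, were led by Kcnab2 at 35.8 ± 1.20 FPKM in WT and 34.7 ± 2.02 FPKM in Tet2 cKO (SD, n = 3 each). Kcnab3 and Kcnab1 stood at means of 10.5 and 8.27 FPKM.

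Silent subunits form channels only when joined to other voltage-gated subunits. Among the silent genes, Kcnf1 (mean 12.4 FPKM), Kcns2 (9.60 FPKM) and Kcng4 (9.44 FPKM) were the highest. Kcng1 and Kcns3 stood at 1.04 and 1.20 FPKM, and Kcng2, Kcns1, Kcnv1 and Kcnv2 were below 1 FPKM.

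Kcnc genes encode channels that open at strong depolarisation and allow fast repolarisation. Kcnc2 stood at 47.95, 43.67 and 45.09 FPKM in WT, against 45.43, 46.68 and 38.77 FPKM in Tet2 cKO. Kcnc1 stood at a mean of 19.4 FPKM and Kcnc4 at 11.7 FPKM. Kcnd genes encode the A-type channels that open below spike threshold. Kcnd2 stood at 41.2 ± 3.45 FPKM in WT and 39.9 ± 0.790 FPKM in Tet2 cKO (SD, n = 3 each), and made up 71.3% of the Kcnd total. Kcnd3 and Kcnd1 stood at means of 14.1 and 2.15 FPKM. The Kcnip subunits bind the Kcnd channels. Kcnip4 stood at 48.11, 47.28 and 45.36 FPKM in WT, against 50.87, 47.19 and 43.88 FPKM in Tet2 cKO, and Kcnip3 and Kcnip1 at means of 21.7 and 11.8 FPKM. The level of the leading Kcnip gene was thus near that of the leading Kcnd gene, on the FPKM scale.

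Kcnh2, of the ERG channels, led the Kcnh genes at 14.5 ± 2.28 FPKM in WT and 14.8 ± 1.35 FPKM in Tet2 cKO (SD, n = 3 each). Kcnh7 stood at a mean of 2.97 FPKM, and Kcnh8 at 1.78 FPKM in WT and 2.03 FPKM in Tet2 cKO. The Kcnq genes carry the M current, which muscarinic receptors inhibit. Kcnq3 stood at 11.8 ± 0.639 FPKM in WT and 11.3 ± 0.852 FPKM in Tet2 cKO (SD, n = 3 each), and Kcnq5 at a mean of 2.76 FPKM. The groups overlapped for both genes.

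Kcnma1 encodes the large-conductance channel opened by calcium and voltage together. It stood at 38.25, 41.07 and 24.58 FPKM in WT, against 36.31, 32.53 and 36.74 FPKM in Tet2 cKO. WT replicate 3 was the lowest of the 6 libraries, and WT replicates 1 and 2 were both above every Tet2 cKO library. Its auxiliary subunits Kcnmb4, the brain form, and Kcnmb2, which makes the channel inactivate, stood at means of 9.12 and 1.86 FPKM. The small-conductance channels, opened by calcium through calmodulin, were led by Kcnn3 (8.88 FPKM), then Kcnn2 (6.82 FPKM) and Kcnn1 (3.16 FPKM). Kcnt1 and Kcnt2, the sodium-activated channels, stood at means of 14.9 and 3.89 FPKM. Kcnt1 was highest in WT replicate 3 (16.49 FPKM) and Tet2 cKO replicate 3 (16.38 FPKM).

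The G protein-gated inward rectifiers (GIRK), which open when receptors coupled to inhibitory G proteins are active, were dominated by Kcnj9. Kcnj9 stood at 51.25, 47.08 and 45.20 FPKM in WT, against 47.21, 47.23 and 47.78 FPKM in Tet2 cKO. The groups overlapped. Of the summed FPKM of the 4 GIRK genes, Kcnj9 held 60.5% to 63.7% in the 6 libraries, Kcnj3 29.6% to 33.8%, Kcnj5 4.50% to 6.75% and Kcnj6 0.755% to 1.68%. Kcnj6, a main GIRK subunit of dopamine neurons, stood at 0.96, 1.29 and 0.62 FPKM in WT, against 0.56, 1.25 and 1.25 FPKM in Tet2 cKO. Its mean of 0.988 FPKM lay just under the filter, so it was not tested, although it had 786 counts over the 6 libraries. Kcnj4, at 1.02 FPKM, lay just above the filter.

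Among other inward rectifiers, Kcnj12, a strong rectifier, stood at a mean of 10.4 FPKM and Kcnj16, which pairs with the glial channel gene Kcnj10, at 9.34 FPKM. Kcnj11, the pore of the ATP-sensitive channel, stood at 5.41 FPKM, and its sulfonylurea receptor gene Abcc8 at 2.84 FPKM. Of the tandem-pore genes, Kcnk1 stood at 35.1 ± 0.331 FPKM in WT and 33.1 ± 1.62 FPKM in Tet2 cKO (SD, n = 3 each). The acid-sensitive pair Kcnk9 and Kcnk3 stood at means of 8.12 and 7.50 FPKM. By CPM, a scaled count that is not per length, Kcnk9 ranked above Kcnk1.

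At the low end, Kcne1, Kcnj1, Kcnk15 and Kcnk16 had 0 counts in all 6 libraries. A count of 0 allows up to 3 counts, which is a level of 0.0502 to 0.0931 FPKM for these genes and covers counting error only. A further 8 genes had counts but a mean below 0.1 FPKM, among them Kcna7, Kcnv2 and Kcne3. Kcnj1 lies 28.1 kb from Kcnj5 on chromosome 9 and was not detected, while Kcnj5 stood at 4.05 FPKM. Exons of 19 tested genes overlap a gene on the opposite strand, among them Kcnj9, Kcnj3, Kcnk1, Kcnma1 and Kcnip4. On the same strand, exons of Kcnk4 overlap those of Catsperz, and exons of Kcnab2 those of Gm16334. The sources used here do not state the strand setting of the counting. Reads of overlapping partners therefore cannot be told apart.

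Where a promoter entry was found, tested potassium channel genes held fewer CpG dinucleotides than all tested genes. RefSeq (GRCm38.p6) gave 250 bases upstream of the start for 65 of the 90 genes. Only the first entry of each gene was used, and it need not lie at the start given by GENCODE. The window of Kcnab1, on the plus strand of chromosome 3, begins at 64948962, whereas GENCODE starts the gene at 65109384. A count of at least 10 CG dinucleotides, which read the same on both strands, was met by 48.9% of 45 tested potassium channel genes (median 9 CpG). The same count was met by 74.3% of 10357 tested genes (median 16 CpG) and by 38.2% of all 27025 genes with an entry. The promoter windows of Kcne1l and Kcns3 held 9 and 8 CpG. DNA methylation was not analysed here, so the counts describe sequence only.

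No potassium channel gene passed the test of the libraries labelled Tet2 cKO against WT across all genes. The edgeR quasi-likelihood test with Benjamini-Hochberg adjustment called 0 of 61 potassium channel genes at an adjusted p under 0.05, beside 0 of 14539 genes (0%). The adjusted p was 0.9999 for every one of the 61, and the smallest over all genes was adjusted p = 0.113 (edgeR). At an unadjusted p under 0.05 there were 4 of 61 genes (6.56%), beside 374 genes or 2.57% of all tested. DESeq2 likewise called 0 of the 61. Of the 4 genes, 3 were higher (background 0.894%) and 1 was lower (background 1.68%) under the Tet2 cKO label. The FPKM ranges of the groups did not overlap in 7 genes (11.5%), beside 6.8% of all genes. Of these, Kcne1l, Kcns3 and Kcnh7 were higher (background 3.34%) and Kcns2, Kcnj11, Kcnj3 and Kcnk1 lower (background 3.46%).

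Most estimated differences were small. The median log2 difference was 0.02 over the 61 genes, beside -0.00209 over all genes tested. The estimate lay within 0.5 of 0 for 59 of the 61 genes, and the whole 95% interval within 0.5 of 0 for 46 and within 1 of 0 for 57. For some of the highest pore genes the intervals were narrow. The interval was -0.18 to 0.13 for Kcnj9 and -0.25 to 0.04 for Kcnj3, so both lay well inside 0.5 on the log2 scale in either direction. Kcnma1, also among the highest genes, changed sign when WT replicate 3 was left out. Among the 61 genes, estimates ran from -0.41 (SE 0.398) for Kcnj4 to 0.71 (SE 0.178) for Kcne1l. Of the genes left out by name, Kcne2 and Kcnj13, both in the choroid plexus marker list, lay below this range. Their differences were -1.44 (SE 0.509) and -1.195 (SE 0.521). Kcnj8 and Kcnj10, also left out, differed by 0.19 and 0.17. Kcnj4 had a WT value of 1.96 FPKM in replicate 2 against 0.64 and 0.89 FPKM in the others, and the groups overlapped. Its WT mean of 1.16 FPKM lies over the filter and its Tet2 cKO mean of 0.877 FPKM under it, so it too was tested through the group in which it was higher.

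**Figure D3:**
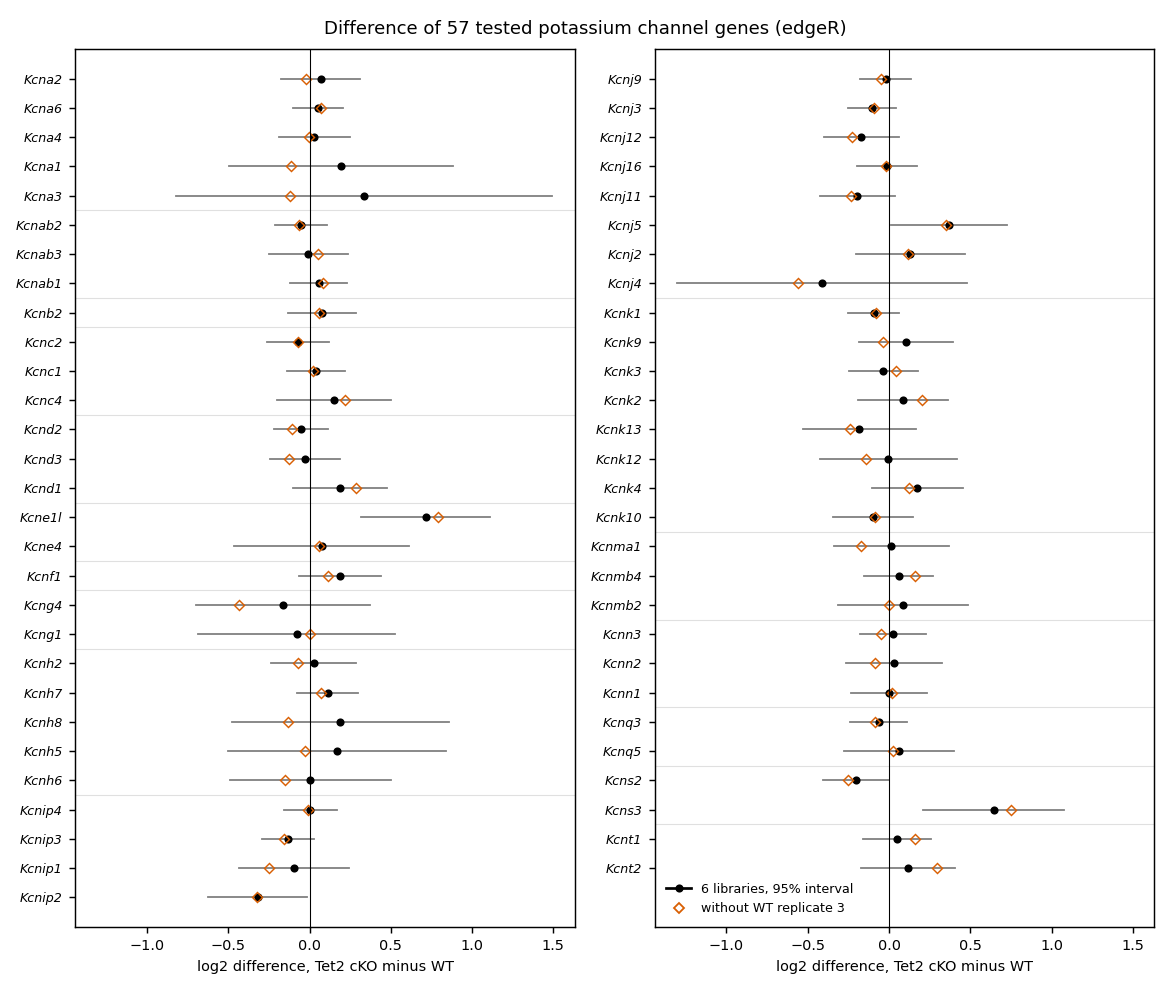
The log2 difference (Tet2 cKO minus WT) of 57 of the 61 tested potassium channel genes by edgeR, as points with 95% intervals from 6 libraries, and as open diamonds without WT replicate 3. The intervals of Kcne1l, Kcns3, Kcnj5 and Kcnip2 leave out 0, and diamonds of Kcng4, Kcna3 and Kcnh8 lie clearly left of their points.

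Among the auxiliary subunits, Kcne1l, an X-linked relative of the subunit that slows Kcnq1, stood at 2.36, 2.26 and 2.63 FPKM in WT, against 4.16, 4.41 and 3.41 FPKM in Tet2 cKO. The lowest library labelled Tet2 cKO lay above the highest WT library. Counts were 56 to 72 in WT and 94 to 122 in Tet2 cKO. The log2 difference was 0.71 (SE 0.178, edgeR unadjusted p = 0.00258, adjusted p = 0.9999), or 1.64-fold. The gene lies on the minus strand of chromosome X (142304752 to 142306294, GRCm38).

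Among the silent subunits, Kcns3 stood at 0.80, 0.94 and 1.05 FPKM in WT, against 1.59, 1.29 and 1.52 FPKM in Tet2 cKO. The groups did not overlap, but the WT mean of 0.930 FPKM lies under the filter and the Tet2 cKO mean of 1.47 FPKM over it, so the gene was tested through the group in which it was higher. Its log2 difference was 0.64 (SE 0.194, edgeR unadjusted p = 0.00813, adjusted p = 0.9999). Kcns2 lay the other way, at 11.32, 10.01 and 9.40 FPKM in WT, against 8.43, 9.10 and 9.36 FPKM in Tet2 cKO, with a log2 difference of -0.20 (SE 0.0907). Its groups met closely, with 9.40 FPKM in WT replicate 3 and 9.36 FPKM in Tet2 cKO replicate 3. Kcnf1 differed by 0.19 (SE 0.113) with overlapping groups.

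Kcnj5, the least abundant of the tested GIRK genes, stood at 3.65, 3.56 and 3.37 FPKM in WT, against 3.37, 5.16 and 5.20 FPKM in Tet2 cKO. Tet2 cKO replicate 1 equalled the lowest WT library, and replicates 2 and 3 were above all WT libraries. The log2 difference was 0.37 (SE 0.160, edgeR unadjusted p = 0.0446, adjusted p = 0.9999). Kcnj3 was lower in each Tet2 cKO library than in each WT library, at 25.21, 24.90 and 25.08 FPKM against 23.03, 24.45 and 22.82 FPKM. The difference of Kcnj3 was -0.10 on the log2 scale (SE 0.0658), and that of Kcnj9 was -0.02 (SE 0.0690). Kcnj11 stood at 6.24, 5.66 and 5.36 FPKM in WT, against 4.63, 5.24 and 5.31 FPKM in Tet2 cKO, a log2 difference of -0.19 (SE 0.104), and Kcnj12 differed by -0.17 (SE 0.104).

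Kcnip2, which shapes A-type current, stood at 3.59, 4.45 and 3.88 FPKM in WT, against 3.74, 2.90 and 2.95 FPKM in Tet2 cKO. Tet2 cKO replicate 1 lay within the WT range and the other Tet2 cKO libraries below it. The log2 difference was -0.32 (SE 0.136, edgeR unadjusted p = 0.0413, adjusted p = 0.9999). Kcnip3 differed by -0.13 (SE 0.0717), with overlapping groups. For Kcnd1 among the A-type pores the difference was 0.19 (SE 0.130).

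The remaining genes named by the rule were Kcnh7, an ERG relative (0.11, SE 0.0839), and the tandem-pore genes Kcnk4 (0.17, SE 0.126), Kcnk1 (-0.09, SE 0.0700) and Kcnk13 (-0.18, SE 0.155). Kcnk4 is mechanosensitive, and Kcnk13 is known from microglia. Kcnh7 stood at 2.94, 2.95 and 2.64 FPKM in WT, against 2.99, 3.28 and 3.01 FPKM in Tet2 cKO. The gap between its groups was 2.95 to 2.99 FPKM.

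**Figure D4:**
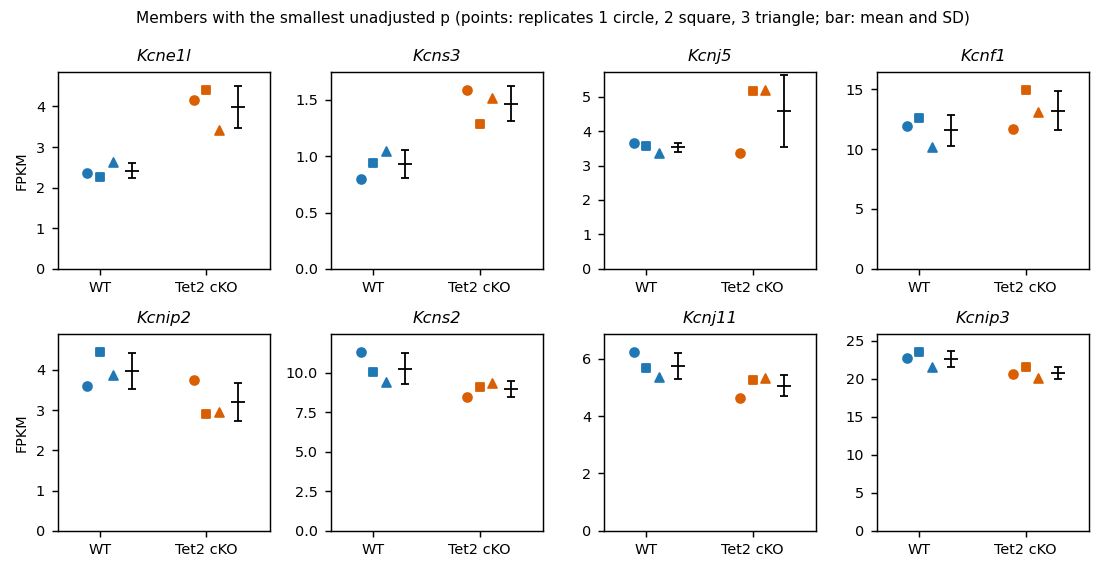
FPKM per library of 8 potassium channel genes, the 4 higher and 4 lower in Tet2 cKO with the smallest unadjusted p among those reported here, with points for libraries (blue WT, orange Tet2 cKO) and mean and SD (n = 3) beside them. Kcne1l runs from 2.26 to 2.63 FPKM in WT and from 3.41 to 4.41 FPKM in Tet2 cKO, while Kcnj5 and Kcnip2 have 1 Tet2 cKO library within the WT range or at its edge.

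Among the marker lists of other cell types, choroid plexus and ependyma had the lowest medians under the Tet2 cKO label. Sums of the groups overlapped for choroid plexus and did not for ependyma. The summed FPKM of 10 choroid plexus markers was 449 to 1401 in WT and 171 to 824 in Tet2 cKO, and that of 8 ependymal markers 59.9 to 76.2 and 45.0 to 55.6. The median log2 difference was -1.20 for choroid plexus and -0.43 for ependyma, with 0 genes called in either list. Of the other markers, the habenula list differed by a median of 0.02, astrocytes by 0.14, microglia by 0.02 and oligodendrocytes by 0.08. Their part in the values of Kcne1l, Kcns3, Kcnj5 and Kcnip2 was not tested. No marker of these cell type lists had 0 counts in every library.

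Levels in the family also varied between libraries of 1 group. WT replicate 3 was the lowest of the 6 libraries in 24 of 61 potassium channel genes (39.3%), beside 28.8% of all genes tested. Kcnma1, Kcng4 and Kcnip1 followed the order of libraries of most habenula markers, lowest in WT replicate 3, next in Tet2 cKO replicate 2 and highest in WT replicate 2. That order was found in 8 of 12 habenula markers (Gpr151, Nwd2, Pou4f1, Chat, Slc5a7, Chrna3, Chrnb3 and Chrnb4), in 3 of 61 potassium channel genes (4.92%) and in 1.84% of all genes tested. Gap43 and Vgf of the same marker list were instead highest in WT replicate 3, at 272 and 54.4 FPKM, and Slc17a6 and Tac2 had other orders. Kcng4 stood at 11.51, 12.62 and 5.72 FPKM in WT, against 10.32, 7.98 and 8.48 FPKM in Tet2 cKO. Lrrc55, an auxiliary subunit of the Kcnma1 channel outside the Kcn names, had the same order, at 45.62, 54.31 and 25.52 FPKM in WT, against 46.31, 35.78 and 46.40 FPKM in Tet2 cKO. The order was noticed in the data, and no test was made of it. WT replicate 3 also had the highest summed FPKM of 7 GABAergic neuron markers (65.5, against 36.03 to 56.15 in the other libraries) and the highest mitochondrial share of counts (7.66%). Their part in these values was not tested.

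A second order set WT replicate 3 and Tet2 cKO replicate 1 apart as the lowest pair. It was found in 20 of 61 potassium channel genes (32.8%), beside 17% of all genes tested, and in 0 of 12 habenula markers. It was also that of 2 of 3 tested oligodendrocyte precursor markers and 2 of 8 astrocyte markers, and of at most 1 marker in each other cell type list. This order too was noticed in the data, and no test was made of it. Among the 20 potassium channel genes were Kcna1, Kcna2, Kcna3, Kcna4, Kcnc1, Kcnd3, Kcnh2, Kcnh5, Kcnh8 and Kcnj5. Kcna3 stood at 2.58, 1.96 and 0.41 FPKM in WT, against 1.12, 2.44 and 2.70 FPKM in Tet2 cKO. Kcna1 stood at 7.33, 7.67 and 3.09 FPKM in WT, against 4.76, 8.53 and 7.41 FPKM in Tet2 cKO. The order was also that of 4 of 13 tested partner genes (Amigo1, Ank3, Cntnap2 and Dpp6). It was more frequent in genes with long exonic sequence. Among tested genes at least as long as the median tested potassium channel gene (4789 bases), 29.5% had it, beside 12 of 31 potassium channel genes of that length (38.7%).

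**Figure D5:**
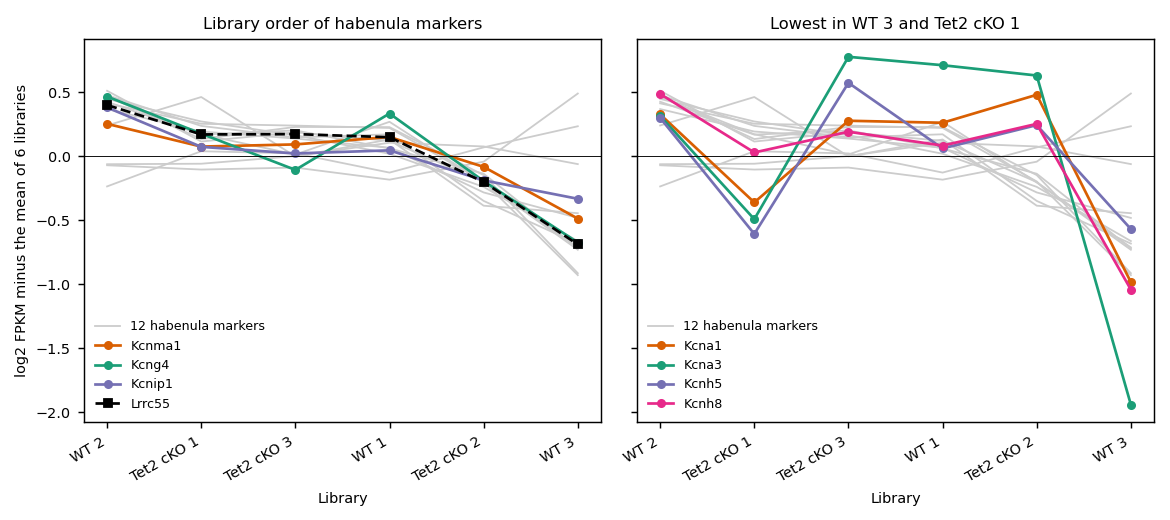
Log2 FPKM minus the mean of the 6 libraries, with libraries on the x axis ordered roughly from high to low in most habenula markers. At left, Kcnma1, Kcng4, Kcnip1 and Lrrc55 run with most of the 12 habenula markers (grey), and at right Kcna1, Kcna3, Kcnh5 and Kcnh8 have their 2 lowest values in Tet2 cKO replicate 1 and WT replicate 3.

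Directions within the family turned on WT replicate 3. With 6 libraries, 36 of the 61 genes had a positive and 25 a negative difference, and without WT replicate 3 it was 25 positive and 36 negative. Directions were not counted over all genes tested, where WT replicate 3 was the lowest library in 28.8%. The shift therefore cannot be called particular to the family. The 5 tested Kcna genes and the 5 tested Kcnh genes were all on the positive side with 6 libraries, and 4 of 5 in each subfamily were on the negative side without it. For Kcna3 the difference was 0.34 (SE 0.518) with 6 libraries and -0.12 without WT replicate 3. For Kcna1 these values were 0.19 and -0.12, for Kcnh8 0.19 and -0.13, for Kcnh5 0.17 and -0.03, and for Kcnma1 0.02 and -0.17. Without WT replicate 3, 11 of 61 genes (18%) had an unadjusted p under 0.05, beside 5.95% of all genes. Of these 4 were higher (background 2.88%) and 7 lower (background 3.07%). Of the 61 genes, Kcng4 had the lowest p in that fit, at a log2 difference of -0.43 (edgeR unadjusted p = 0.00147, adjusted p = 0.426). None of the 61 passed at an adjusted p under 0.05, where 0.0206% of all genes did. The 2 WT libraries left were those with the highest Kcng4 and Kcnma1 and the highest summed family FPKM of all.

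With libraries weighted by quality in limma voom, which gave WT replicate 3 a weight of 0.281, 14 of 61 genes (23%) had an unadjusted p under 0.05, beside 6.62% of all genes. There were 8 higher (background 2.57%) and 6 lower (background 4.04%). No potassium channel gene passed at an adjusted p under 0.05, where 0.0138% of all genes did. Kcne1l and Kcns3 differed by 0.71 and 0.72 in that fit, and by 0.79 and 0.75 without WT replicate 3.

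The partners of potassium channels that do not bear a Kcn name gave 0 of 13 tested genes past the threshold. Of these 10 had a positive and 3 a negative difference, with a median of 0.04, and of -0.00398 without WT replicate 3. The highest levels were those of Lrrc55 (mean 42.3 FPKM), Vapa (39.5 FPKM), Dpp6 (26.6 FPKM) and Vapb (26.6 FPKM). Vapa and Vapb tether the endoplasmic reticulum to other membranes, and Dpp6 joins the Kcnd and Kcnip subunits. The log2 differences of Lrrc55, Vapa, Dpp6 and Vapb were 0.03, 0.03, 0.09 and 0.04. Without WT replicate 3 that of Lrrc55 was -0.22 and that of Dpp6 -0.00398, and without Tet2 cKO replicate 3 that of Vapb was -0.00669, so the sign of these 3 was not stable. Amigo1, an adhesion protein, stood at 17.4 FPKM and Dpp10, a relative of Dpp6, at 13.1 FPKM. Lrrc52 had 0 counts in every library, and Lrrc26 and Lrrc38, other relatives of Lrrc55, were under the filter.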

How the data were processed

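The deposited gene table holds whole-number counts for 55359 genes in 6 libraries and FPKM values made by the authors, per the file headers. The deposited FPKM equal the count per kilobase of exonic size, scaled by the library total, to within 0.005. The tools HISAT2 2.0.1, SAMtools 0.1.19, cutadapt 1.9.1 and FastQC 0.10.1 and the build mm10 are named per the submitters' processing notes. For the read counter, annotation and strand setting, nothing is given in the sources used here. The table's coordinates did not match GRCm38, so positions are those of GENCODE release 21, joined by gene identifier (90 of 90 matched).

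Genes that reached 1 FPKM on average were tested on the counts with edgeR 4.0.16 (two-sided quasi-likelihood test, TMM, no covariate, differences as Tet2 cKO minus WT) under R 4.3.3, with Benjamini-Hochberg adjustment over 14539 genes. The common biological coefficient of variation was 10.4%. Alternatives were DESeq2 1.42.0, RLE size factors, other filters, limma 3.58.1 on log2(FPKM + 1) and log2(FPKM + 0.1), limma voom with library weights, the replicate number as a block, and leaving out each library. The edgeR script was tested on simulated data. Intervals are 95% intervals.

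The members, lists and rules were chosen with earlier results of these data known. Levels are given for the 3 highest genes of each subfamily and the GIRK genes. Differences are given for the 8 genes per direction with the smallest unadjusted p, as none passed, and for the extremes. The values of 4 genes are not reported here, although counts over the family include them. Partners are the 4 highest of a list of 16. Other genes in the text were picked with their values in view. Marker lists not described in the text were thalamus, hippocampus, GABAergic neurons, oligodendrocyte precursors, and endothelium and mural cells, with median log2 differences of -0.04, -0.13, -0.14, 0.07 and -0.07.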

Additional observations from a re-analysis of the deposited data

How the results depend on the processing

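No potassium channel gene passed at an adjusted p under 0.05 under any of the 14 alternatives. Over all genes, 4 passed by DESeq2, 49 with no filter on low values, 2 with a mean of at least 0.5 FPKM and 2 by limma voom with library weights, and 0 to 3 when 1 library was left out. The number of potassium channel genes at an unadjusted p under 0.05, which was 4, became 2 by limma on log2(FPKM + 1), 2 by limma on log2(FPKM + 0.1) and 14 by limma voom with library weights. It became 2 with the replicate block, and lay between 2 and 11 when 1 library was left out, reaching 11 without WT replicate 3, beside 7 without Tet2 cKO replicate 1. The share of all genes at that p also moved, from 2.57% to 5.95% without WT replicate 3 and to 6.62% by limma voom with library weights. For the other settings that share is not given here, so changes in these counts cannot be called particular to the family. The median log2 difference lay between -0.0298 and 0.062 when 1 library was left out. The causes were not tested.

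Of 23 potassium channel genes with a printed difference, 15 kept their sign under all 14 alternatives and 8 did not. Kcnma1 became -0.115 by limma voom with library weights. Among the fits that left out 1 library, Kcnma1 ran from -0.17 to 0.15, Kcnj9 from -0.0508 to 0.0332, Kcng4 from -0.433 to 0.038 and Kcnj4 from -0.701 to 0.17. Kcna1 ran from -0.115 to 0.402, Kcna3 from -0.122 to 0.83, Kcnh5 from -0.0945 to 0.441 and Kcnh8 from -0.13 to 0.526. The same alternatives, added for Tet2 and 4 partner genes after the data were seen, turned the sign of 3 of the 5. Lrrc55 became -0.135 by limma voom with library weights, and ran from -0.22 to 0.254 when 1 library was left out. In those fits Dpp6 ran from -0.00398 to 0.18 and Vapb from -0.00669 to 0.0765. Same-numbered WT and Tet2 cKO libraries had deviations correlated at -0.03, 0.15 and -0.10, and differently numbered ones at -0.18 to 0.17. These few values show no pairing by number but cannot exclude one. The block moved the count of potassium channel genes at an unadjusted p under 0.05 from 4 to 2, with no share of all genes given beside it. By CPM in place of FPKM, 9 of 57 ranks within subfamilies moved. With 3 libraries per group, the median standard error was 0.113 on the log2 scale, which limits what could be called.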
